A study of Mus musculus with 28 samples.

Results

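Expression of 10 Wnt receptors, modulators and signal transducers (Dkk3, Sfrp1, Notum, Fzd1, Fzd2, Fzd3, Fzd10, Axin2, Tcf7l2 and Ctnnb1) was followed in single cells sorted from the subependymal zone (SEZ) of adult mice, a region beside the lateral ventricles where new neurons are made. The genes were taken by symbol from the 17690 gene rows of the deposited tables, and all 10 had a row. The study sorted cells by reporters, lineage labels or surface markers and profiled them by SORT-seq, in which fluorescence-sorted cells are lysed in wells and their RNA is read from the 3' end with random barcodes. Each of the 7 sorts holds 4 libraries of 96 wells, 28 libraries in all. All mice were of the strain Bl/6.

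The mixed day-60 sort holds tdTomato+ cells of the SEZ or the olfactory bulb of Ki67-iresCreER +/ki Rosa-tdTomato +/ki mice, taken 60 days after a single 5 mg dose of tamoxifen, together with O4+ oligodendrocytes; these mice were 8 to 19 weeks old. The day-60 tdTomato sort holds tdTomato+ SEZ cells of mice with the same alleles, 60 days after the same dose, at 16 to 19 weeks. Day-2 tdTomato cells came from the SEZ of mice with these alleles 2 days after that dose. In both, Cre is driven by the Mki67 locus, so the label marks cells that were dividing around the time of tamoxifen and their descendants. Ki67-RFP cells came from Ki67-tagRFP ki/ki mice, whose red reporter marks dividing cells. GLAST/EGF cells were taken with an antibody to GLAST (the glial glutamate transporter encoded by Slc1a3), with fluorescent EGF, or with both. Prom1/CD24 cells were taken with antibodies to PROM1 and CD24. Troy-GFP cells came from Troy-GFPiresCreER +/ki mice, whose reporter sits in Tnfrsf19 and was used to find neural stem cells (NSCs). The last 5 sorts were taken from the SEZ at 8 to 10 weeks of age. How many mice gave each library is not stated, so p-values measure the spread between the 4 libraries of a sort, which may be technical.

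Wnt proteins are secreted, lipid-modified ligands that bind Frizzled (Fzd) receptors together with Lrp co-receptors. In the canonical branch this binding stops a cytoplasmic complex built on Axin and Apc from marking beta-catenin, the product of Ctnnb1, for destruction, and beta-catenin then acts in the nucleus with TCF/LEF factors such as Tcf7l2. Secreted proteins tune the signal outside the cell: Sfrp1 binds Wnts through a Frizzled-like domain, Notum removes their lipid, and Dkk3 is a divergent member of the Dickkopf family. Axin2 is a widely used target gene of the pathway and feeds back on it. In the adult SEZ, Wnt signals have been linked to the proliferation and self-renewal of NSCs and their progeny.

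On the GRCm38 assembly (GENCODE M21), the genes lie on 7 chromosomes: Dkk3 at chr7:112116017-112159057, Sfrp1 at chr8:23411502-23449632, Notum at chr11:120653788-120661175, Fzd1 at chr5:4753839-4758035, Fzd2 at chr11:102604396-102608058, Fzd3 at chr14:65192449-65262463, Fzd10 at chr5:128600844-128604093, Axin2 at chr11:108920349-108950783, Tcf7l2 at chr19:55741820-55933654 and Ctnnb1 at chr9:120929216-120960507. RefSeq promoter windows on GRCm38.p6, from 250 bases before to 50 bases after a start site, were at hand for 5 of the 10 genes, in 7 entries. Those of Axin2, Fzd10 and both Tcf7l2 starts are shown, because Axin2 is the usual readout of beta-catenin and TCF factors, Fzd10 had the narrowest expression of the 10 genes and Tcf7l2 is the TCF factor among them. All are on the plus strand and read 5' to 3'; capitals mark the single match to the TCF motif described after them.
Axin2 promoter (chr11:108920099-108920398): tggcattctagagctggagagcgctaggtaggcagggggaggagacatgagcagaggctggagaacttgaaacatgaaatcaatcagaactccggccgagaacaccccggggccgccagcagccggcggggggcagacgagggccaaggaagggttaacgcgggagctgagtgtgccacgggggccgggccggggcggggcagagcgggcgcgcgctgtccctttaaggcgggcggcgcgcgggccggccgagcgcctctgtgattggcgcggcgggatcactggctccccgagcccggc
Fzd10 promoter (chr5:128600856-128601155): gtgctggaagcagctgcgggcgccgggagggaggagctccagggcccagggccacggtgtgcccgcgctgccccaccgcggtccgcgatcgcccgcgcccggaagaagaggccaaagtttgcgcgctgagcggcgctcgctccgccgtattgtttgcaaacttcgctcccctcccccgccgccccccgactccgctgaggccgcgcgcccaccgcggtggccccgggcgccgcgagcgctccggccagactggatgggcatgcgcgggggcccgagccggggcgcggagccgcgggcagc
Tcf7l2 promoter, first start (chr19:55741560-55741859): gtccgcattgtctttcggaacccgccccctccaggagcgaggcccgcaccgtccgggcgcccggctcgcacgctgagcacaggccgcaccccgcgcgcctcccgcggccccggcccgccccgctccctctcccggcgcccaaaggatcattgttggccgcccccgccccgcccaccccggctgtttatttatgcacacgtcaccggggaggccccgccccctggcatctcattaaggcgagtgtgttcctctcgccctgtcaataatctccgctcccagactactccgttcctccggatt
Tcf7l2 promoter, second start (chr19:55895071-55895370): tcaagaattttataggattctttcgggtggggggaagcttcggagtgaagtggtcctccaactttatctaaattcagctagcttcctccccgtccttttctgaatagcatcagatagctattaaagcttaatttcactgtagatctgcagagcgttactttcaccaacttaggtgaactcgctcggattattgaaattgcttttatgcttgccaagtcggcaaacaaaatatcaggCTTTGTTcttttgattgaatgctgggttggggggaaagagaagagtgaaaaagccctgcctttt
On either strand, the letters CTTTGAA and CTTTGAT were found in 0 of the 7 entries and in 8.65% of 32851 promoter windows of the same length. A wider search, made after that one, added CTTTGTA and CTTTGTT and matched 1 of the 7 entries, against 16.9% of all windows. That match is the CTTTGTT whose first base lies 14 bases before the second Tcf7l2 start. A match of letters is a description and does not mark a bound site.

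Of 2688 wells, 1789 held at least 1000 estimated transcripts and were counted as cells, with 11 to 89 cells and 43149 to 572793 transcripts per library; the study states about 1500 cells out of about 2500. Spike-in RNA made up 44.3% to 56.8% of transcripts in the Prom1/CD24 libraries, which gave 64 cells in all, and 6.57% to 17.7% elsewhere. Levels are given as CPM, the transcripts of a gene in every 1000000 transcripts of the cells of a library, scaled for composition (TMM). The labels held against their own genes in part: Mki67 averaged 640 ± 83.5 CPM in Ki67-RFP cells (SD, n = 4) and was at 0 in the 4 day-60 tdTomato libraries, while Cd24a averaged 542 CPM in Prom1/CD24 cells, less than the 1794 CPM of day-2 tdTomato cells. Y-linked transcripts summed to 290 to 422 CPM in every GLAST/EGF and Troy-GFP library and were at 0 in every other library, so sex and sort cannot be told apart in comparisons of Troy-GFP or GLAST/EGF cells with the other sorts. The file labels name another flow cell than elsewhere for libraries 3 and 4 of the GLAST/EGF sort and for the first pair of Troy-GFP libraries, and none for the day-2 tdTomato libraries. A cluster led by intestinal genes (Reg1, Alpi, Apoa1) held 36 cells, of which 26 were in Troy-GFP library 2 and 10 in GLAST/EGF libraries 3 and 4, and the calls it touches are given with and without it.

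Cell states were rebuilt by clustering without the 10 genes and without other Wnt pathway genes, and named from marker genes. NSC-like cells (astroglial genes such as Slc1a3 and Aldoc, which NSCs share with other astrocytes) numbered 642, progenitor-like cells (Egfr, Mcm2, Top2a) 380 and neuroblast-like cells (Dlx1, Dcx, Nrep) 286. Of NSC-like cells, 28 were in the mixed day-60 sort, 289 of 349 cells (82.8%) in the day-60 tdTomato sort, 6 in the day-2 tdTomato sort, 4 in the Ki67-RFP sort, 94 of 216 (43.5%) in the GLAST/EGF sort, 16 in the Prom1/CD24 sort and 205 of 311 (65.9%) in the Troy-GFP sort. Progenitor-like cells came mainly from the Ki67-RFP (186) and GLAST/EGF (95) sorts, and neuroblast-like cells from the day-2 tdTomato (160) and Ki67-RFP (113) sorts. The mixed day-60 sort held 125 of the 142 oligodendrocyte-like cells and 74 of the 79 mature neuron-like cells. In sums over a library, fewer cells of a type and less RNA of a gene per cell cannot be told apart, so class shares stand beside the comparisons of whole sorts.

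By cell state, the 10 genes fell into unlike patterns. Dkk3, Fzd2 and Fzd10 were highest in NSC-like cells and Tcf7l2 was high there, Ctnnb1 was low there and high in progenitor-like, neuroblast-like and endothelial-like cells, Fzd3 was higher in neuroblast-like and progenitor-like than in NSC-like cells, and Sfrp1, Notum, Fzd1 and Axin2 were at similar levels in NSC-like and progenitor-like cells. These levels per class are in CPM of the cells of the class, unscaled, as the mean ± SD over libraries with at least 5 such cells (16 libraries for NSC-like, 17 for progenitor-like and 8 for neuroblast-like cells), and they are descriptions with no test.

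Among the secreted modulators, Dkk3 averaged 483 ± 215 CPM in NSC-like, 83.5 ± 48.3 in progenitor-like and 23.3 ± 13.1 in neuroblast-like cells. Sfrp1 averaged 130 ± 73.3, 100.5 ± 59.2 and 29.1 ± 16.5 CPM in the same 3 classes. Notum averaged 44.7 ± 45.3 CPM in NSC-like and 41.8 ± 43.2 in progenitor-like cells, with libraries at 0 in both, and 2.76 ± 5.66 in neuroblast-like cells. In oligodendrocyte-like cells these 3 genes averaged 4.15, 9.99 and 0 CPM.

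Of the receptors, Fzd2 averaged 495 ± 140 CPM in NSC-like cells, 75.3 ± 28.2 in progenitor-like and 75.6 ± 29.5 in neuroblast-like cells, and its lowest NSC-like library (292 CPM) lay above the highest library of both other classes (137 CPM). Fzd1 averaged 86.2 ± 59.6 and 55.1 ± 29 CPM in NSC-like and progenitor-like cells and 3.42 ± 5.11 in neuroblast-like cells. Fzd3, which acts in axon guidance and planar polarity, averaged 86.4 ± 38.6, 139 ± 46.1 and 184 ± 46.9 CPM in the 3 classes. It reached 220 ± 25.8 CPM in 2 libraries of oligodendrocyte precursor-like cells and was at 0 in the endothelial-like and microglia-like libraries with at least 5 such cells, although over all libraries 6 of 61 endothelial-like cells and 1 of 46 microglia-like cells held a transcript. Fzd10 averaged 14.8 ± 13.2 CPM in NSC-like cells and was at 0 in every library of all other named classes except 1 progenitor-like library.

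Inside the cell, Ctnnb1 averaged 212 ± 115 CPM in NSC-like cells, 1016 ± 186 in progenitor-like and 994 ± 130 in neuroblast-like cells; the highest NSC-like library, at 544 CPM, lay below the lowest progenitor-like one, at 743 CPM. It was as high in endothelial-like cells (1071 ± 172 CPM, 5 libraries) and lower in mature neuron-like (411 ± 63.9) and oligodendrocyte-like cells (276 ± 33.4, 4 libraries each). Tcf7l2 ran the other way, with 167 ± 44.7 CPM in NSC-like, 25.9 ± 16.9 in progenitor-like and 2.04 ± 3.77 in neuroblast-like cells. It stood at 39.5 and 384 CPM in the 2 oligodendrocyte precursor-like libraries (10 cells) and at 51.5 and 200.7 CPM in 2 microglia-like ones (13 cells). Axin2 averaged 41.2 ± 19.8, 45.3 ± 20.7 and 15.8 ± 9.88 CPM in these classes.

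**Figure D1:**
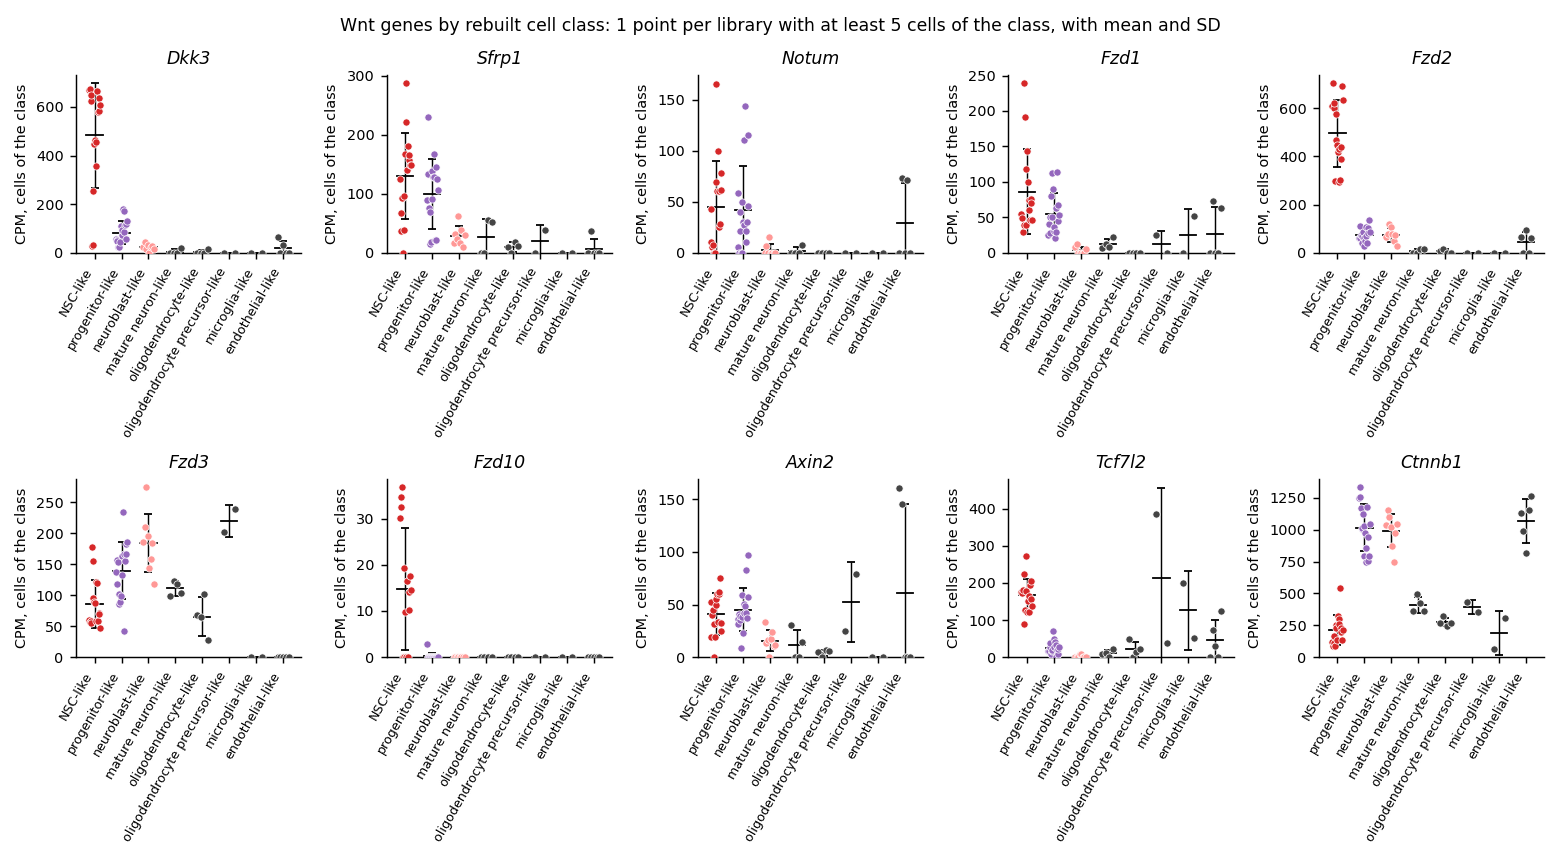
CPM of the 10 genes (y axes, linear, each with its own scale) in 8 rebuilt cell classes (x axes); each point is a library with at least 5 cells of the class and the lines give mean and SD. Dkk3, Fzd2 and Fzd10 are highest in NSC-like cells, Tcf7l2 is high there and in 1 library of oligodendrocyte precursor-like cells, and Ctnnb1 is low there, with a mean of 212 CPM against 1016 CPM in progenitor-like cells.

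Across whole sorts, Dkk3 was highest in the 2 sorts richest in NSC-like cells. It stood at 2.29, 3.39, 2.80 and 50.1 CPM in mixed day-60 libraries, at 542, 608, 551 and 556 CPM in day-60 tdTomato libraries and at 15.7, 21.2, 101 and 78.9 CPM in day-2 tdTomato libraries. It had 56.2, 55.7, 41.9 and 28.7 CPM in Ki67-RFP, 177, 178, 239 and 225 CPM in GLAST/EGF, 54.8, 160.2, 90.4 and 52.9 CPM in Prom1/CD24, and 470.0, 410.3, 461 and 440.4 CPM in Troy-GFP libraries. From the highest down, day-60 tdTomato, Troy-GFP, GLAST/EGF and Prom1/CD24 did not overlap each other, while the Prom1/CD24, day-2 tdTomato, Ki67-RFP and mixed day-60 ranges overlapped their neighbours.

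Sfrp1 had 4.58, 3.39, 36.6 and 25 CPM in mixed day-60, 118, 66.2, 39.3 and 81 CPM in day-60 tdTomato and 15.7, 46.1, 16.7 and 85.8 CPM in day-2 tdTomato libraries. It had 78.6, 116, 179.8 and 77.1 CPM in Ki67-RFP, 111, 156, 172 and 115 CPM in GLAST/EGF, 36.6, 31.9, 111 and 79.3 CPM in Prom1/CD24 and 149, 87.6, 135 and 127 CPM in Troy-GFP libraries. GLAST/EGF, Troy-GFP and Ki67-RFP were highest and every sort overlapped its neighbours in the order. Notum, the Wnt-deacylating enzyme, was sparse: it had 2.29, 0, 0 and 4.54 CPM in mixed day-60, 8.71, 37.7, 4.62 and 8.67 CPM in day-60 tdTomato and 19.7, 0, 0 and 25.1 CPM in day-2 tdTomato libraries. In Ki67-RFP libraries it had 46.1, 5.96, 0 and 19.7 CPM, in GLAST/EGF 40.8, 66.6, 93.2 and 136 CPM, in Prom1/CD24 0, 23.9, 10.0 and 0 CPM, and in Troy-GFP 25, 22.8, 67.4 and 71.7 CPM. GLAST/EGF was highest and overlapped Troy-GFP.

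Fzd2 followed Dkk3. It had 29.9 to 66.3 CPM in mixed day-60, 503, 643, 535 and 540.1 CPM in day-60 tdTomato, and 39 to 123 CPM in day-2 tdTomato libraries. Its range was 60.1 to 102 CPM in Ki67-RFP, 144 to 179 CPM in GLAST/EGF and 36.6 to 133 CPM in Prom1/CD24 libraries, and it had 316, 365, 521 and 454 CPM in Troy-GFP libraries. Day-60 tdTomato and Troy-GFP overlapped each other and lay above all other sorts, and GLAST/EGF lay above the 4 that remained. Fzd10 stood at 24, 28.8, 30.1 and 30.3 CPM in day-60 tdTomato and at 7.66, 9.48, 12.4 and 9.54 CPM in Troy-GFP libraries, with no overlap. In the other 20 libraries it had at most 4.14 CPM, and it was at 0 in all 4 Prom1/CD24 libraries. The counts behind it were small, 51 transcripts in day-60 tdTomato and 18 in Troy-GFP cells, a ratio of 2.81 with a 95% interval of 1.61 to 5.11 that covers counting error only.

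Fzd3 was highest in Ki67-RFP (145 to 180.5 CPM) and GLAST/EGF cells (108 to 195 CPM), followed by day-2 tdTomato (107 to 134 CPM), Troy-GFP (89.5 to 122 CPM), mixed day-60 (77.3 to 109 CPM) and day-60 tdTomato cells (54.3 to 87.7 CPM). Only Prom1/CD24 cells, at 18.2 to 47.8 CPM, did not overlap the neighbour in that order. Fzd1 and Axin2 had sort means of 22.4 to 58.4 CPM and 20.03 to 49.1 CPM, both lowest in mixed day-60 and highest in Troy-GFP cells, and every sort overlapped its neighbours in the order. Tcf7l2 had 155, 165, 159.8 and 193 CPM in day-60 tdTomato and 154, 112, 157 and 105 CPM in Troy-GFP libraries, above the 55.3 to 84 CPM of GLAST/EGF libraries. It had 25.2 to 77.5 CPM in mixed day-60, 7.07 to 32.1 CPM in day-2 tdTomato, 14.1 to 37.6 CPM in Ki67-RFP and 18.2 to 70.5 CPM in Prom1/CD24 libraries.

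Ctnnb1 took nearly the opposite order. It had 340.4, 351, 362 and 345 CPM in mixed day-60, 252, 166, 237 and 243 CPM in day-60 tdTomato and 910.3, 779, 1012 and 926 CPM in day-2 tdTomato libraries. It had 1169, 1299, 1207 and 1141 CPM in Ki67-RFP, 781, 774, 687 and 567 CPM in GLAST/EGF, 594, 872, 444 and 763 CPM in Prom1/CD24 and 434, 354, 357 and 519.7 CPM in Troy-GFP libraries. Ki67-RFP lay above and day-60 tdTomato below every other sort, and the sorts between them overlapped their neighbours.

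**Figure D2:**
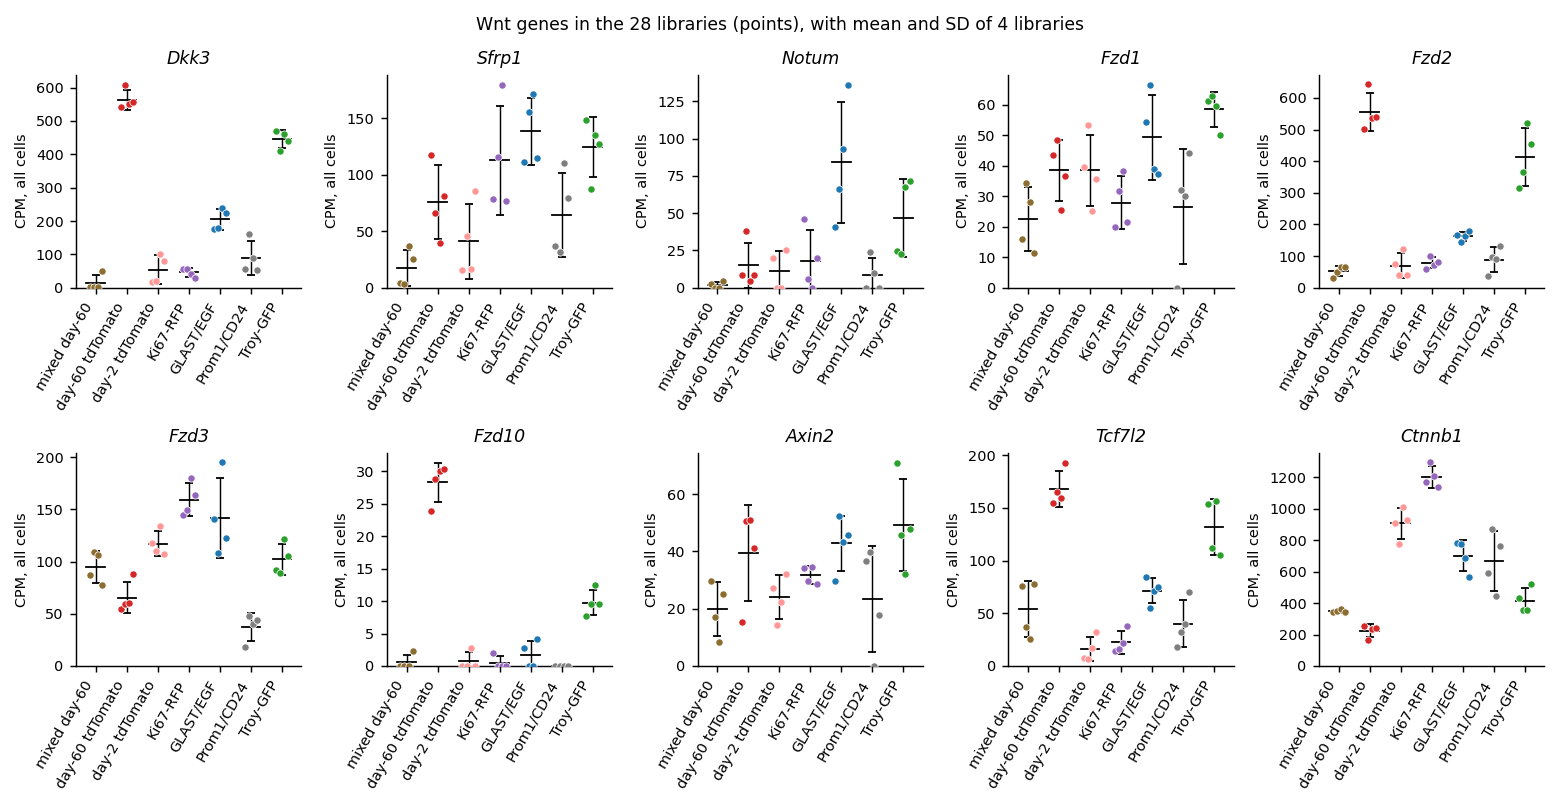
TMM-scaled CPM over all cells of a library (y axes, linear, each with its own scale) for the 10 genes in the 7 sorts (x axes); each point is 1 of the 28 libraries and the lines give mean and SD of 4. Dkk3, Fzd2, Tcf7l2 and Fzd10 peak in day-60 tdTomato and Troy-GFP cells and Ctnnb1 in Ki67-RFP cells, at 1141 to 1299 CPM.

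The first comparison sets dividing cells against cells with the stem cell reporter, Ki67-RFP against Troy-GFP. In Ki67-RFP cells Dkk3, Fzd2 and Fzd1 fell and Ctnnb1 and Fzd3 rose. Fold changes are log2 values ± SE from limma voom, and p-values are adjusted by Benjamini-Hochberg over all genes tested. Of the 9 genes tested, 8 passed the 0.05 threshold, 6 of them lower and 2 higher; of all 8396 genes tested, 60.6% passed, 28.9% lower and 31.8% higher. The libraries of the sorts did not overlap for 6 of the 9, beside 53.1% of all genes tested; most genes tested thus differed between these sorts. The fold was -3.32 ± 0.19 for Dkk3 (adjusted p = 5.56e-14), -2.56 ± 0.29 for Tcf7l2 (adjusted p = 2.54e-08), -2.35 ± 0.18 for Fzd2 (adjusted p = 2.27e-11) and -1.09 ± 0.25 for Fzd1 (adjusted p = 0.000595). It was 1.55 ± 0.11 for Ctnnb1 (adjusted p = 5.38e-12) and 0.66 ± 0.16 for Fzd3 (adjusted p = 0.000748). Notum had a log2 fold of -2.20 ± 0.70 (adjusted p = 0.00850), which was -1.06 (adjusted p = 0.0801) without Ki67-RFP library 3, the library at 0, and -2.96 without Ki67-RFP library 1. Axin2 was just past the threshold, at -0.60 ± 0.26 (adjusted p = 0.0486), and the call was lost when any 1 of 7 of the 8 libraries was left out (all but Troy-GFP library 3), with values of -0.64 to -0.39. Tcf7l2 and Notum reached the filter only through the Troy-GFP libraries, where they are high, with 48.2 and 37.1 transcripts in Ki67-RFP cells. Nothing is read from their calls. Sfrp1 had -0.19 ± 0.22 (adjusted p = 0.457). Fzd10 was too sparse to test, with 1 transcript in Ki67-RFP and 18 in Troy-GFP cells, a ratio of 0.0503 with a 95% counting interval of 0.00121 to 0.319. Without the intestinal gene cluster 8 genes passed again. Class makeup moved with these values, at 4 NSC-like cells of 315 in Ki67-RFP and 205 of 311 in Troy-GFP libraries, and its part in them was not tested here.

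Labelled cells 60 days after tamoxifen were set against those 2 days after it, that is, long-term SEZ descendants against recently dividing cells. In day-60 tdTomato cells Fzd2 rose and Ctnnb1 and Fzd3 fell. Of 8 genes tested, 6 passed, 4 higher and 2 lower, beside 67.9% of all 7648 genes tested, 32.9% higher and 35% lower; 5 did not overlap, beside 61.7%. With limma voom the fold was 3.6 ± 0.35 for Dkk3 (adjusted p = 5.38e-08), 3.46 ± 0.39 for Tcf7l2 (adjusted p = 4.06e-07) and 3.09 ± 0.26 for Fzd2 (adjusted p = 1.03e-08). It was -2.03 ± 0.15 for Ctnnb1 (adjusted p = 1.69e-09) and -0.86 ± 0.21 for Fzd3 (adjusted p = 0.00113). Dkk3, Tcf7l2 and Sfrp1 reached the filter only through the day-60 tdTomato libraries, where they are high. They had 68.7, 19.1 and 47.2 transcripts in day-2 tdTomato cells, so nothing is read from their calls. Sfrp1 was past the threshold at 1.14 ± 0.45 (adjusted p = 0.0321), but its libraries overlapped and the call was lost without day-60 tdTomato library 1 or 4 or day-2 tdTomato library 1 or 3, with values of 0.74 to 1.08 and adjusted p of 0.0604 to 0.188; it was also lost with limma-trend (1.02), without TMM (1.05) and without the filter on low levels (1.13). Fzd1 and Axin2 did not pass, at 0.04 ± 0.32 and 0.58 ± 0.45. Fzd10 had 51 transcripts in day-60 tdTomato and 1 in day-2 tdTomato cells and was not tested, nor was Notum, with 27.2 and 12.1 transcripts. The day-60 mice were 16 to 19 weeks old beside 8 to 10 weeks at day 2, and the day-60 sort held 82.8% NSC-like cells beside 6 of 220 cells in the day-2 sort. Age and time since tamoxifen cannot be told apart, and the part of class makeup was not tested. The file labels name a flow cell for the day-60 tdTomato libraries and none for the day-2 ones, so a possible flow cell difference cannot be told apart either.

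Day-2 tdTomato and Ki67-RFP cells, both marked through Mki67 but 2 days apart in the cell's history, were compared next. Of 7 genes tested, 2 passed, both lower in day-2 tdTomato cells, beside 28.2% of all 6952 genes tested, 14.2% higher and 14% lower; 2 of the 7 did not overlap, beside 27.4%. Sfrp1 had a fold of -1.71 ± 0.41 (adjusted p = 0.00249 with limma voom), although 1 day-2 tdTomato library (85.8 CPM) lay above 2 Ki67-RFP libraries, and Ctnnb1 had -0.40 ± 0.09 (adjusted p = 0.00155) without overlap. Sfrp1 reached the filter only through the Ki67-RFP libraries, where it is high, so nothing is read from its call. Fzd3 had -0.43 ± 0.17 and did not overlap, but missed the threshold (adjusted p = 0.0543). Dkk3 (0.07 ± 0.39), Fzd1 (0.43 ± 0.32), Fzd2 (-0.27 ± 0.28) and Axin2 (-0.41 ± 0.35) did not pass. Progenitor-like cells made up 47 of 220 cells in the day-2 tdTomato and 186 of 315 in the Ki67-RFP sort. A flow cell is named for the Ki67-RFP libraries only, so a possible flow cell difference cannot be told apart from the sorts.

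GLAST/EGF cells, selected as stem or EGF-binding cells, were set against Troy-GFP cells. Dkk3, Fzd2 and Tcf7l2 were lower and Ctnnb1 was higher in GLAST/EGF cells. Of 9 genes tested, 5 passed, 3 lower and 2 higher, beside 30.5% of all 7818 genes tested, 14.9% lower and 15.6% higher; 4 did not overlap, beside 29.2%. With limma voom the fold was -1.11 ± 0.14 for Dkk3 (adjusted p = 4.68e-06), -1.30 ± 0.16 for Fzd2 (adjusted p = 6.68e-06), -0.86 ± 0.20 for Tcf7l2 (adjusted p = 0.00253) and 0.76 ± 0.14 for Ctnnb1 (adjusted p = 0.000383). Notum was higher by 1.04 ± 0.37 (adjusted p = 0.0360), but within the flow cell that both sorts share, with 2 libraries each, its log2 fold was -0.41 (adjusted p = 0.433). Without the intestinal gene cluster the Notum fold was 0.84 (adjusted p = 0.0728). In that cluster 3 of 36 cells held 14.25 Notum transcripts, of which 11.24 were in 1 cell of GLAST/EGF library 4. Leaving out GLAST/EGF library 3 or 4 or Troy-GFP library 1 or 2 also ended that call, with values of 0.75 to 0.96. With cells thinned to 1000 transcripts, Dkk3 (-0.58, adjusted p = 0.0669) and Ctnnb1 (0.59, adjusted p = 0.0552) were no longer called. Within the shared flow cell 3 genes passed, and Tcf7l2 kept its size there (-0.89, adjusted p = 0.0613). Fzd3 (0.47 ± 0.19, adjusted p = 0.0658), Sfrp1 (0.16 ± 0.19), Fzd1 (-0.32 ± 0.23) and Axin2 (-0.19 ± 0.27) did not pass. NSC-like cells were 43.5% of GLAST/EGF and 65.9% of Troy-GFP cells and progenitor-like cells 44% and 12.5%, and the part of this makeup was not tested.

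Prom1/CD24 cells were also set against Troy-GFP cells, which thus serve as controls in 3 comparisons of whole sorts. The same libraries serve again in the NSC-like comparisons below, so all of these are not independent. Dkk3 and Fzd2 were lower in Prom1/CD24 cells, with folds of -2.24 ± 0.29 (adjusted p = 7.64e-05) and -2.01 ± 0.31 (adjusted p = 0.000364) with limma voom; with cells thinned to 1000 transcripts Dkk3 was -3.39. Dkk3 and Fzd2 each rested on 38.2 transcripts over the 4 Prom1/CD24 libraries, with 3.01 and 2.01 in library 1. Of 8 genes tested, 5 passed, 4 lower and 1 higher, beside 25% of all 5680 genes tested, 15.8% lower and 9.15% higher, and 5 did not overlap, beside 30.1%. The other 3 calls hung on single libraries: Tcf7l2 (-1.53 ± 0.45, adjusted p = 0.0203) was lost without Troy-GFP library 1 or 3 (-1.47 and -1.45), Fzd3 (-1.18 ± 0.40, adjusted p = 0.0434) without any of the 4 Prom1/CD24 libraries (-1.30 to -1.07), and Ctnnb1 (0.69 ± 0.21, adjusted p = 0.0245) without Prom1/CD24 library 2 or 4 (0.53 and 0.61) or Troy-GFP library 2 or 3 (0.61 and 0.62). Ctnnb1 was also lost without the intestinal gene cluster, at 0.59 (adjusted p = 0.0501). Tcf7l2 and Fzd3 reached the filter only through the Troy-GFP libraries, with 17.1 and 16.0 transcripts in Prom1/CD24 cells, so nothing is read from their calls. Sfrp1 (-0.96 ± 0.40, adjusted p = 0.0892), Fzd1 (-1.03 ± 0.52) and Axin2 (-1.15 ± 0.70) did not pass. Without TMM scaling the median of all genes moved up by 0.28 in this comparison, and Fzd3 was -0.90 (adjusted p = 0.107). NSC-like cells were 25% of Prom1/CD24 and 65.9% of Troy-GFP cells, progenitor-like cells 20.3% and 12.5% and endothelial-like cells 17.2% and 8.68%; the part of this makeup was not tested.

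The mixed day-60 sort, in which olfactory bulb cells and oligodendrocytes join the labelled SEZ cells, was set against day-60 tdTomato cells of the SEZ alone. Fzd2 and Tcf7l2 were lower in the mixed sort and Ctnnb1 was higher. Of 9 genes tested, 6 passed, 5 lower and 1 higher, beside 44% of all 8152 genes tested, 18.1% lower and 25.9% higher; the same number did not overlap, beside 40.1%. With limma voom the fold was -6.08 ± 0.64 for Dkk3 (adjusted p = 1.0e-06), -3.43 ± 0.23 for Fzd2 (adjusted p = 5.87e-09), -2.42 ± 0.65 for Sfrp1 (adjusted p = 0.00619), -1.68 ± 0.27 for Tcf7l2 (adjusted p = 9.48e-05) and 0.65 ± 0.15 for Ctnnb1 (adjusted p = 0.00196). The Dkk3 fold rested on 1 transcript in each of mixed day-60 libraries 1 to 3; it was -7.08 without mixed day-60 library 4, -5.50 without library 1 and -5.31 with cells thinned to 1000 transcripts, where Tcf7l2 was -2.39. Fzd10 is the fifth of the lower calls (adjusted p = 2.35e-05), but it reached the filter only through the day-60 tdTomato libraries, where it is high, so nothing is read from the call. Fzd10 had 1 transcript in mixed day-60 and 51 in day-60 tdTomato cells. Dkk3 and Sfrp1 also reached the filter only through the day-60 tdTomato libraries, with 25.1 and 27.2 transcripts in mixed day-60 cells. Nothing is read from their calls either, and their levels stand as a description. Fzd1 (-0.96 ± 0.38, adjusted p = 0.0502), Fzd3 (0.52 ± 0.21, adjusted p = 0.0537) and Axin2 (-0.82 ± 0.50) did not pass. NSC-like cells were 28 of 314 in the mixed day-60 and 289 of 349 in the day-60 tdTomato sort, and the part of this makeup was not tested.

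**Figure D3:**
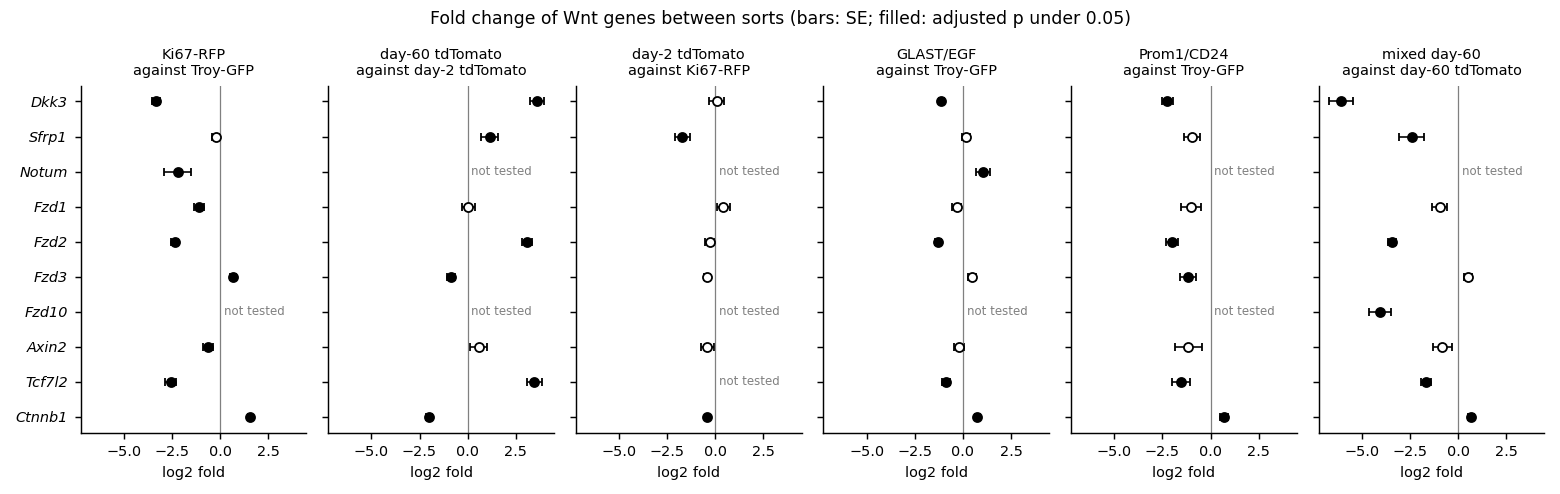
Log2 fold change (x axes, linear) of the 10 genes (rows) in the 6 comparisons of whole sorts, first-named sort over second; bars are SE from limma voom and filled points have an adjusted p under 0.05. Fzd2 lies on one side of 0 and Ctnnb1 on the other in 5 of the 6 panels, which share libraries and are not independent. Nothing is read from points whose calls are set aside in the text, among them some of Dkk3 and Tcf7l2.

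Within NSC-like cells fewer of the genes passed between sorts. Day-60 tdTomato NSC-like cells (289) were set against Troy-GFP NSC-like cells (205). All 10 genes were tested, and 3 did not overlap, beside 8.97% of all 6456 genes tested. Of the 10, 1 passed and was lower, beside 3.49% of all genes tested, 1.12% lower and 2.37% higher. That gene was Sfrp1, at 125.8, 67.5, 37.3 and 92.9 CPM in day-60 tdTomato and 158, 165, 149.5 and 149 CPM in Troy-GFP NSC-like cells, a log2 fold of -0.98 ± 0.23 (adjusted p = 0.00900). Without day-60 tdTomato library 3 it was -0.69 (adjusted p = 0.0776), and over Troy-GFP libraries 3 and 4, which share a flow cell with the day-60 libraries, -0.93 (adjusted p = 0.0849). It was -0.33 (adjusted p = 0.695) with cells thinned to 1000 transcripts, and 0.60 (adjusted p = 0.617) with a minimum of 2000 transcripts per cell, where the Thbs4-led cluster described next stayed unnamed and left the class. Notum had 10.9, 42.8, 5.32 and 7.89 CPM in day-60 tdTomato and 25.8, 28.3, 78 and 61.6 CPM in Troy-GFP NSC-like cells, and did not pass (-1.59 ± 0.53, adjusted p = 0.0923). Fzd10 had 30.01, 32.6, 34.7 and 36.7 CPM in day-60 tdTomato and 10.3, 14.1, 17.6 and 14.5 CPM in Troy-GFP NSC-like cells, with no overlap, but the counts are low and it did not pass either (1.28 ± 0.46, adjusted p = 0.130). Dkk3 (0.20 ± 0.11), Fzd2 (0.36 ± 0.14), Tcf7l2 (0.19 ± 0.17), Ctnnb1 (-0.64 ± 0.20, adjusted p = 0.0638), Fzd1 (-0.34 ± 0.28), Axin2 (-0.17 ± 0.34) and Fzd3 (0.00 ± 0.24) did not pass. Age (16 to 19 beside 8 to 10 weeks), reporter alleles, tamoxifen and sex all differ between these sorts and cannot be told apart, and Troy-GFP libraries 1 and 2 were on another flow cell.

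Sfrp1 and Notum, which the clustering did not use, were unequal among NSC-like clusters, and the makeup of the sorts differed in those clusters. The cluster led by Thbs4 (with S100a6 and the immune genes Ifit3 and C4b) was 12.2%, 13.9%, 9.72% and 7.04% of NSC-like cells in day-60 tdTomato libraries, 17.2%, 38.1%, 22.2% and 19.2% in GLAST/EGF libraries and 22.2%, 32.3%, 26.4% and 34.5% in Troy-GFP libraries. Over all libraries with at least 5 of its cells, Sfrp1 averaged 433 ± 172 CPM in this cluster, 109 ± 127 in the largest NSC-like cluster, led by Crym, 34.2 ± 28.8 in the one led by Ptchd4 and 9.17 ± 17.6 in the one led by Agt. Inside the Thbs4-led cluster, Sfrp1 averaged 386 ± 278 CPM in day-60 tdTomato (31 cells), 418 ± 94.4 in GLAST/EGF (18 cells) and 491 ± 90.5 in Troy-GFP libraries (58 cells), and these ranges overlapped. In the Crym-led cluster it averaged 64.8 ± 44.5 CPM in day-60 tdTomato, 251 ± 147 in GLAST/EGF and 36.9 ± 20.2 in Troy-GFP libraries. The lower Sfrp1 of day-60 tdTomato NSC-like cells thus stands beside a smaller Thbs4-led share, and the day-60 tdTomato mean was above the Troy-GFP mean in the Crym-led cluster; the part of this makeup in the call was not tested.

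**Figure D4:**
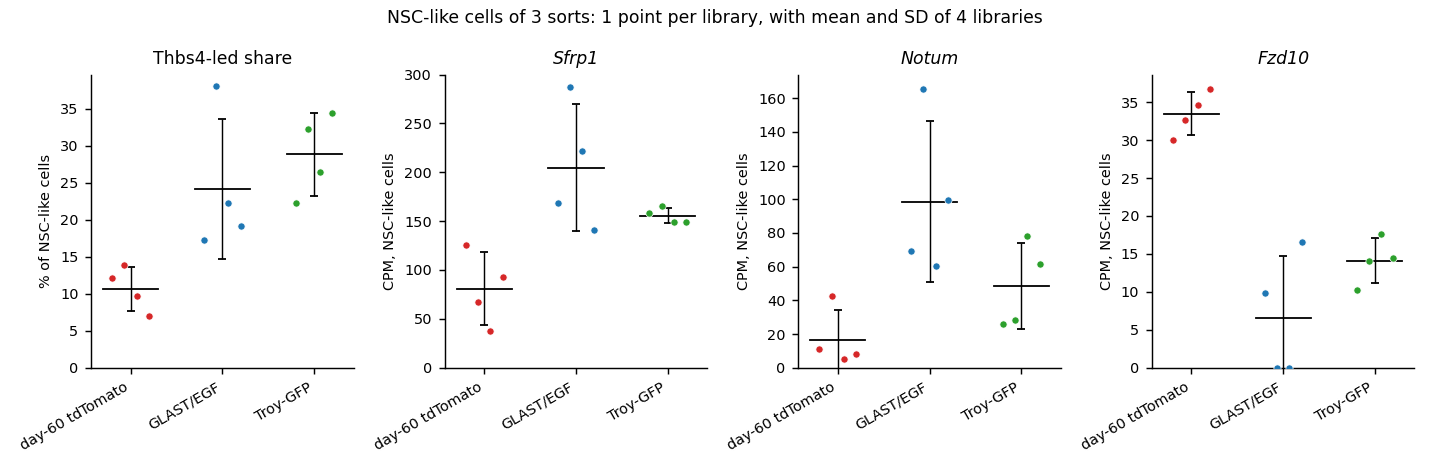
Share of NSC-like cells in the Thbs4-led cluster (%, first panel) and CPM of Sfrp1, Notum and Fzd10 in NSC-like cells (other panels, linear y axes) for day-60 tdTomato, GLAST/EGF and Troy-GFP libraries; points are libraries, lines mean and SD of 4. Day-60 tdTomato libraries lie below all others for the share (7.04% to 13.9%) and for Sfrp1, and above all others for Fzd10.

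Notum was held mainly by 2 clusters. It was detected in 147 of 1789 cells, of which 49 lay in the Thbs4-led NSC-like cluster (40.2% of its 122 cells, 95% exact binomial interval 31.4% to 49.4%) and 51 in a progenitor-like cluster with high Egfr and Hes6, called cluster 5 here (34.9% of 146, 27.2% to 43.3%). These clusters gave 35.6% and 44% of all Notum transcripts. As a background, 2 of 142 oligodendrocyte-like cells (1.41%) held a Notum transcript at a median depth of 4995 transcripts per cell, close to the 4799 of the Thbs4-led cluster and below the 9212 of cluster 5; after thinning every cell to 1000 transcripts the shares were 11.5% in the Thbs4-led, 13.7% in cluster 5 and 0 in the oligodendrocyte-like cells. Endothelial-like cells held one more often, in 8 of 61 cells (13.1%, and 4.92% after thinning, at a median depth of 3583), as did 9 of 84 Mcm2-led progenitor-like cells (10.7%, and 1.19% after thinning). In the Crym-led NSC-like cluster 9 of 350 cells (2.57%) held one. Mean levels were 193 ± 117 CPM in the Thbs4-led cluster and 92.3 ± 82.5 in cluster 5, 11.4 ± 15.8 in the Mcm2-led one and 2.94 to 6.08 CPM in the Crym-led, Ptchd4-led, Agt-led and Top2a-led ones. Within the Thbs4-led cluster Notum averaged 122 ± 98.7 CPM in day-60 tdTomato, 326 ± 29.6 in GLAST/EGF and 165 ± 101 in Troy-GFP libraries.

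Other members also graded across these clusters. Dkk3 averaged 1000.5 ± 298 CPM in the Thbs4-led, 602 ± 153 in the Crym-led, 343 ± 143 in the Ptchd4-led and 106 ± 112 in the Agt-led cluster, and 154 ± 76.5, 35.1 ± 17.8 and 17.6 ± 14.6 CPM in cluster 5 and the Mcm2-led and Top2a-led progenitor-like clusters. Fzd2 stayed between 505 and 553 CPM in the Ptchd4-led, Thbs4-led and Crym-led clusters and was 299 ± 184 CPM in the Agt-led one, against 57.3 to 94.3 CPM in the 3 progenitor-like clusters. Tcf7l2 was at 152 to 204 CPM in the 4 NSC-like clusters and at 37.2, 33.2 and 5.07 CPM in cluster 5 and the Mcm2-led and Top2a-led ones. Ctnnb1 was at 125 to 291 CPM in the NSC-like clusters, highest in the Thbs4-led one, and at 963 to 1151 CPM in the progenitor-like ones. Axin2 was highest in cluster 5 (67.3 ± 23.5 CPM) and the Thbs4-led cluster (65.7 ± 56.6 CPM) and at 25.7 to 45.9 CPM in the other 5, ranges that overlap.

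Among the clusters named NSC-like, Fzd10 was detected most often in the Agt-led one. That cluster is led by Agt, Islr, Etnppl and Adra2a, with 4 class markers among its top 150 genes and 0 among its top 10, and NSCs and other astrocytes cannot be told apart in it from these markers. Fzd10 was found in 52 cells, 20 of them in the Agt-led cluster (24.7% of 81 cells), 22 in the Crym-led one (6.29% of 350), 7 in the Ptchd4-led one, 2 in the intestinal gene cluster and 1 in cluster 5. In the Thbs4-led cluster 0 of 122 cells held a transcript, which allows a share of cells with a transcript of up to 2.46% at 3 counts. Agt-led cells of the 4 day-60 tdTomato libraries (34 cells) had 328, 322, 84.4 and 151 CPM, while 18 Agt-led cells in 3 mixed day-60 libraries had none, which allows up to 32.8 CPM over those libraries, and 7 in 1 GLAST/EGF library had none either, which allows up to 119 CPM. The same Agt-led cluster had the highest Fzd1 of the 7 NSC-like and progenitor-like clusters, 150 ± 123 CPM beside 26.6 to 89.9 CPM. Its share of NSC-like cells averaged 11.8% ± 3.48 in day-60 tdTomato, 15.2% ± 7.98 in GLAST/EGF and 3.86% ± 2.86 in Troy-GFP libraries, and it made up 18 of the 24 NSC-like cells in the 3 mixed day-60 libraries that had at least 5.

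**Figure D5:**
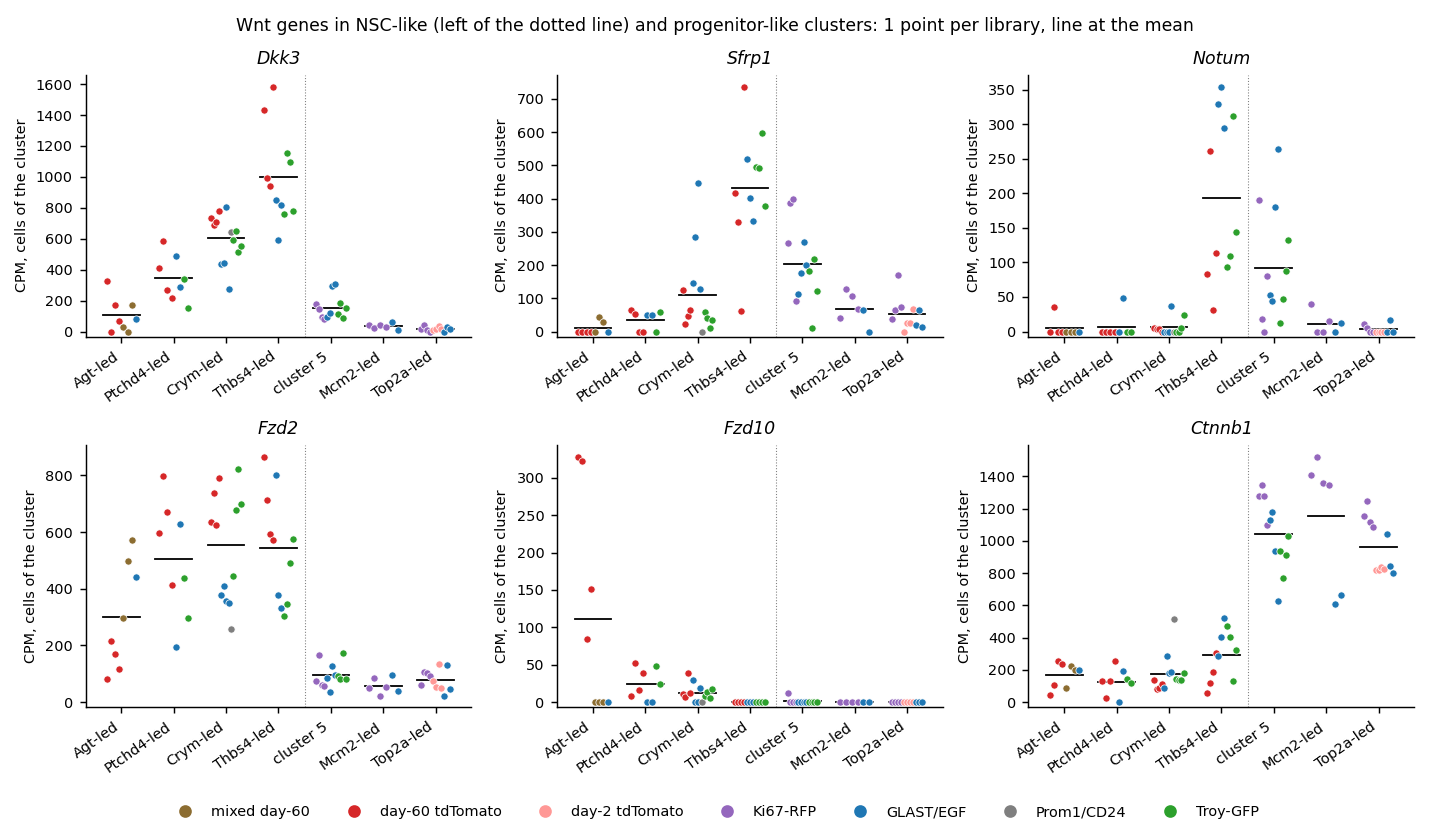
CPM of 6 of the genes (y axes, linear, each with its own scale) in the 4 NSC-like clusters, left of the dotted line, and 3 progenitor-like clusters, each named by its leading gene except cluster 5; points are libraries with at least 5 cells of the cluster, coloured by sort, and lines are means. Dkk3, Sfrp1 and Notum are highest in the Thbs4-led cluster, Fzd10 is at 0 there in 11 libraries and peaks in Agt-led day-60 tdTomato cells, and Ctnnb1 is at least 611 CPM in all progenitor-like points.

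GLAST/EGF NSC-like cells (94) were set against Troy-GFP NSC-like cells. Of 8 genes tested, 0 passed with limma voom and 0 with limma-trend. Of all 3568 genes tested, 0.0841% passed, 0.0561% lower and 0.028% higher, and 1 of the 8 did not overlap, beside 5.66%. That gene was Dkk3, at 446, 465, 455 and 357 CPM in GLAST/EGF and 578, 585, 637 and 607 CPM in Troy-GFP NSC-like cells (-0.61 ± 0.15, adjusted p = 0.123). Fzd2 (-0.52 ± 0.20), Notum (0.97 ± 0.39), Fzd1 (0.75 ± 0.29), Sfrp1 (0.22 ± 0.21), Fzd3 (0.36 ± 0.32), Tcf7l2 (-0.26 ± 0.23) and Ctnnb1 (0.23 ± 0.23) did not pass. At Leiden resolution 1.5 Dkk3 was past the threshold (-0.73, adjusted p = 0.0357).

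In progenitor-like cells, Ki67-RFP (186 cells) was set against GLAST/EGF (95 cells). Of 9 genes tested, 3 passed, 1 higher and 2 lower, beside 14.6% of all 6307 genes tested, 8.51% higher and 6.1% lower, and 2 did not overlap, beside 17.9%. Ctnnb1 rose in Ki67-RFP progenitor-like cells (0.56 ± 0.11, adjusted p = 0.000799 with limma voom), at 1251, 1333, 1256 and 1168 CPM beside 1031, 977, 855 and 743 CPM in GLAST/EGF progenitor-like cells. Dkk3 fell, at 58.8, 54.8, 50.4 and 26 CPM in Ki67-RFP and 75.5, 92.3, 179.9 and 170.2 CPM in GLAST/EGF progenitor-like cells (-1.39 ± 0.29, adjusted p = 0.00176). Dkk3 was not called within the shared flow cell, which leaves GLAST/EGF libraries 1 and 2 (-0.83, adjusted p = 0.141), nor with a minimum of 500 (-0.18, adjusted p = 0.795) or 2000 transcripts per cell (-0.27, adjusted p = 0.703). Notum had 58.7, 5.76, 0 and 21.3 CPM in Ki67-RFP and 30.4, 27.4, 111 and 144 CPM in GLAST/EGF progenitor-like cells (-2.70 ± 0.80, adjusted p = 0.0215), overlapping; the call was lost without GLAST/EGF library 4 (-2.36) or Ki67-RFP library 2, 3 or 4 (-2.59, -1.55 and -3.16) and within the shared flow cell (-1.60, adjusted p = 0.296), and the fold was -3.47 without Ki67-RFP library 1. Notum rested on 32.1 transcripts in Ki67-RFP progenitor-like cells, so nothing is read from its call. The class was made of different clusters in these sorts: 44 cluster 5, 47 Mcm2-led and 95 Top2a-led cells in Ki67-RFP, and 59, 19 and 17 in GLAST/EGF. Sfrp1 (-0.01 ± 0.26), Fzd1 (0.37 ± 0.36), Fzd2 (0.09 ± 0.26), Fzd3 (-0.22 ± 0.18), Axin2 (-0.04 ± 0.31) and Tcf7l2 (-0.57 ± 0.36) did not pass.

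Neuroblast-like cells of the day-2 tdTomato (160) and Ki67-RFP sorts (113) allowed a test of 2 of the genes. With limma voom 0 passed, as with limma-trend. Of all 2854 genes tested, 25% passed, 13.3% higher and 11.7% lower. Fzd3 had -0.52 ± 0.23 (adjusted p = 0.0943) and Ctnnb1 -0.26 ± 0.13 (adjusted p = 0.147). These cells were mostly in the Nrep-led cluster in day-2 tdTomato (107 cells, with 53 in the cycling Ube2c-led cluster) and mostly in the Ube2c-led cluster in Ki67-RFP libraries (89 cells, with 24 Nrep-led).

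The other genes of the pathway were taken from a list of 91, of which 84 had a row. Many of the calls below reached the filter only with the libraries of the sort where the gene is high. In Ki67-RFP cells Tcf7l1 stood at 1.45 CPM, Fzd6 at 3.71, Porcn at 5.65, Ndp at 8.45, Lgr4 at 8.54 and Znrf3 at 12.2 CPM. Tspan12 (13.7), Wnt7a (14.1), Fzd5 (18.5), Wnt7b (19.3) and Wls (19.4 CPM) were low there too. Nothing is read from such calls, and the counts of genes that rose or fell include them. In Ki67-RFP against Troy-GFP cells 41 were tested, 7 rose and 15 fell, beside 31.8% higher and 28.9% lower of all genes tested; their median log2 fold was -0.22, beside 0.07 for all genes tested. The 3 genes of ligand secretion and Norrin were lower: Wls, which carries Wnts to the surface (-2.91 ± 0.26), Ndp, the gene of the Fzd4 ligand Norrin (-2.47 ± 0.46), and Porcn, which adds the lipid (-2.28 ± 0.48). Of 8 other receptors and co-receptors tested, 4 were lower and 0 rose. The 4, all low in Ki67-RFP cells, were Lgr4, the R-spondin receptor (-3.62 ± 0.41), Fzd6 (-3.39 ± 0.55), Tspan12 (-2.08 ± 0.36) and Fzd5 (-1.39 ± 0.33). Of 3 ligands, Wnt7b (-2.10 ± 0.30) and Wnt7a (-1.42 ± 0.40) fell. In the destruction complex and cytoplasmic group, 5 of 13 rose, among them Csnk1e (1.52 ± 0.16) and Gsk3a (1.11 ± 0.17), kinases of the pathway, and 1 fell, the scaffold Apc (-0.89 ± 0.14). Of 9 nuclear partners, the repressors Tcf7l1 (-4.85 ± 0.54) and Tle4 (-2.41 ± 0.28) fell and the co-repressor Ctbp1 rose (1.35 ± 0.15). Znrf3, which removes Frizzled from the surface, fell (-2.58 ± 0.36), as did Tnfrsf19 (-0.69 ± 0.23), and Ccnd1, a cell cycle gene, rose (0.95 ± 0.33).

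In day-60 against day-2 tdTomato cells, 37 of the listed genes were tested, 21 rose and 7 fell, beside 32.9% higher and 35% lower of all genes tested, with a median of 0.78 beside -0.07 for all genes. The 7 receptors and co-receptors tested were all higher, among them Fzd6 (3.90 ± 0.47), Lgr4 (2.97 ± 0.42) and Ryk (1.16 ± 0.21). Wnt7b (4.71 ± 0.45), Wnt4 (2.06 ± 0.32) and Wnt7a (1.97 ± 0.38) rose and Wnt5a fell (-1.30 ± 0.40). The 3 secretion genes were higher, as were the secreted Frizzled-related gene Sfrp5 (4.51 ± 0.44), Tcf7l1 (4.83 ± 0.70) and Znrf3 (2.51 ± 0.45), while Ctbp1 (-1.54 ± 0.17) and Csnk1e (-1.46 ± 0.18) fell. Levels in day-2 tdTomato cells were 0.89 CPM for Fzd6 and Tcf7l1, 0.696 for Sfrp5, 2.56 for Wnt7b and 6.61 for Porcn. Wnt7a (14.4), Znrf3 (14.55), Ndp (16.4) and Lgr4 (19.4 CPM) were low there too. These genes reached the filter only with the day-60 tdTomato libraries, so nothing is read from their calls. Between day-2 tdTomato and Ki67-RFP cells, 28 were tested, 2 rose (Wls 2.11 ± 0.31 and Wnt5a 0.89 ± 0.33) and 8 fell, among them Ccnd1 (-2.38 ± 0.54) and Gsk3b (-1.72 ± 0.19), beside 14.2% higher and 14% lower of all genes. The median was -0.29 beside 0.02 for all genes. Wls and Wnt5a were low in Ki67-RFP cells (19.4 and 20.9 CPM) and Ccnd1 in day-2 tdTomato cells (16.0 CPM), so nothing is read from their calls.

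In GLAST/EGF against Troy-GFP cells 5 of 40 rose, among them Ccnd1 (1.19 ± 0.34) and Dvl2 (0.89 ± 0.25), and 8 fell, among them Wls (-1.60 ± 0.19) and Lgr4 (-1.56 ± 0.26), beside 15.6% higher and 14.9% lower of all genes, with a median of -0.23 beside 0.04 for all genes. In Prom1/CD24 against Troy-GFP cells 0 of 29 rose and 8 fell, among them Wnt7b (-2.60 ± 0.55) and Lgr4 (-2.38 ± 0.59), beside 9.15% higher and 15.8% lower of all genes, with a median of -0.55 beside -0.22. Wnt7b and Lgr4 stood at 8.89 and 19.5 CPM in Prom1/CD24 cells, so nothing is read from their calls. In mixed day-60 against day-60 tdTomato cells 11 of 41 rose, led by the secreted antagonist Frzb (5.20 ± 1.19) and by Lgr5 (2.36 ± 0.36), and 18 fell, among them Sfrp5 (-3.50 ± 0.64), Fzd5 (-2.65 ± 0.57) and Wnt7b (-2.48 ± 0.36), beside 25.9% higher and 18.1% lower of all genes, with a median of -0.24 beside 0.11. Within classes few passed. In NSC-like cells Sfrp5 was higher in day-60 tdTomato than in Troy-GFP cells (1.79 ± 0.44, 1 of 38 tested, beside 3.49% of all genes). Over cells of all classes, Sfrp5 stood at 10.2 CPM in Troy-GFP libraries. It reached the filter only with the day-60 tdTomato libraries, so nothing is read from its call. Between GLAST/EGF and Troy-GFP NSC-like cells 0 of 24 passed, beside 0.0841%. In progenitor-like cells Gsk3a rose (0.61 ± 0.17) and Apc fell (-0.52 ± 0.15) in Ki67-RFP against GLAST/EGF cells, among 28 tested, beside 14.6% of all genes. In neuroblast-like cells Wls rose (1.38 ± 0.40) and Gsk3b (-1.37 ± 0.22) and Csnk1e (-0.57 ± 0.19) fell in day-2 tdTomato against Ki67-RFP cells, among 14 tested, beside 25% of all genes.

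Genes with the most similar pattern were sought by the Pearson correlation over the 28 libraries among 8408 genes, as a description, since the libraries share sorts, class makeup and depth. Fzd2 ran closest to Scg3 (r = 0.961) and Rorb (0.938), Tcf7l2 to Mmd2 (0.948) and Acsl3 (0.937), and Dkk3 to Mt2 (0.929) and Sox9 (0.904). Ctnnb1 ran closest to Hnrnpab (0.967) and H2afz (0.965), genes of RNA binding and chromatin. Fzd1 ran closest to Phtf1 (0.90), Fzd3 to Eif2a (0.887) and Axin2 to Dennd1b (0.868). The likeness was lower for Sfrp1, with Nes, an intermediate filament of neural precursors (0.805), and for Notum, with Acot1 (0.757). Fzd10 was too low to enter.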

How the data were processed

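Single cells were sorted and profiled by SORT-seq, per the labels' protocols. Per the submitters' processing notes, the tools include BWA 0.6.2-r126 and the genome build was mm10. Deposited values are estimated transcripts per gene and well, corrected by the authors for barcode collisions: 4800995 of the 4801006 values above 0 equal that correction for 256 barcodes, computed from whole barcode counts. They are not whole counts, so no count model was used. Whether same-symbol reads were split between near-identical genes is not given in the sources used here.

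Wells with at least 1000 transcripts were kept as cells (43149 to 572793 transcripts per library), doublets were not called, and ERCC spike-ins were left out of totals. Transcripts were summed per library, or per library and class with at least 5 cells, scaled by TMM and compared with limma 3.58.1 (voom, moderated, two-sided; R 4.3.3) in pairs of sorts, 4 libraries each where available, with Benjamini-Hochberg adjustment over all genes tested and a threshold of 0.05. A gene was tested where it had the equivalent of 10 transcripts in a median-sized library in 4 libraries, or in as many as the smaller group held, and 15 transcripts in all. These libraries could be of either sort, so a gene high in a sort could enter through that sort alone. The fit was tested on simulated data.

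Clusters came from scanpy 1.11.5 (2000 variable genes, 30 components, Leiden resolution 1.0) and were named from markers among their top 150 genes. That depth, in place of 50, was chosen after seeing the data, when 3 NSC-like clusters stayed unnamed at 50; the cluster led by Vtn was left unnamed for its fibroblast genes, also with the data seen. Shares of cells have exact Clopper-Pearson 95% intervals, and limits at 0 allow 3 counts; intervals and limits cover counting error only. Alternatives covered scaling, filter, limma-trend, replicate block, cell minimum, thinning, clustering and leaving out each library. The 10 genes and all lists were chosen with earlier results of these data known; every one of the 10 is reported, and other pathway genes are named for size among those past the threshold.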

Additional observations from a re-analysis of the deposited data

Results flagged for a closer look

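In 5 of the 70 sets of 4 libraries examined (10 genes in 7 sorts), 1 library stood far from its group by Dixon's criterion. Chance alone gives about 1 in 20 for normally distributed values, which sparse counts are not. Dkk3 stood at 50.1 CPM (50.14) in library 4 of the mixed day-60 sort, while the other 3 libraries had 2.29 to 3.39 CPM. Notum stood at 37.7 CPM (37.74) in day-60 tdTomato library 2, beside 4.62 to 8.71 CPM in the others; it rested on 17.2 transcripts in 5 cells, of which 47.2% were in 1 cell. Fzd10 was at 2.27 CPM in mixed day-60 library 4, at 2.78 CPM (2.783) in day-2 tdTomato library 3 and at 2.00 CPM (2.002) in Ki67-RFP library 1, in each case from 1 transcript, with the other libraries of these sorts at 0. Any value above 0 beside others at 0 meets the criterion, so nothing is read from the Fzd10 flags.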

How the results depend on the processing

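The number of the 10 genes past the threshold moved with depth and with the libraries kept. It stands in this section without the number tested or the share of all genes in each setting, so nothing is read from its size. With every cell thinned to 1000 transcripts, which lets fewer genes through the filter, it was 4 for Ki67-RFP against Troy-GFP, 3 for day-60 against day-2 tdTomato, 1 for day-2 tdTomato against Ki67-RFP, 1 for GLAST/EGF and 2 for Prom1/CD24 against Troy-GFP, 0 for day-60 tdTomato against Troy-GFP NSC-like cells and 1 for Ki67-RFP against GLAST/EGF progenitor-like cells. Within the shared flow cell, with fewer libraries, it was 3 for GLAST/EGF and 2 for Prom1/CD24 against Troy-GFP and 1 in progenitor-like cells. In day-60 tdTomato against Troy-GFP NSC-like cells it was 2 with TMM from these libraries alone, 2 without TMM, 3 with a minimum of 500 transcripts per cell, 0 with 2000, and 0 with clusters named from their top 50 genes, an alternative added with the data seen, where Sfrp1 had too few transcripts to be tested. In GLAST/EGF against Troy-GFP NSC-like cells it was 1 at Leiden resolution 1.5, in progenitor-like cells 1 with either other minimum and in neuroblast-like cells 1 with 2000; the cause was not tested.

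Libraries with the same number did not deviate together (correlations of -0.0836 to 0.0703), and not every library correlated best with its own number, so the samples share only a number. With replicate number as a block, 2 genes passed in day-60 tdTomato against Troy-GFP NSC-like cells, Sfrp1 between day-60 and day-2 tdTomato was at 0.77 (adjusted p = 0.0978), and the folds of Fzd1 between day-60 and day-2 tdTomato (-0.021), of Fzd3 in those NSC-like cells (-0.014) and of Sfrp1 in progenitor-like cells (0.086) took the other sign.

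The sign of other folds turned as well, of genes not past the threshold unless said. For day-60 against day-2 tdTomato, Fzd1 was -0.053 without TMM and -0.029 with limma-trend, and for day-2 tdTomato against Ki67-RFP, Dkk3 was -0.026 with limma-trend. For GLAST/EGF against Troy-GFP within the flow cell, Axin2 was 0.0062 and Fzd1 0.14, and Notum, called over all libraries, was -0.41. In day-60 tdTomato against Troy-GFP NSC-like cells Fzd3 was -0.031 with TMM from these libraries, -0.075 without TMM, -0.017 with limma-trend, -0.11 with a minimum of 500, -0.062 with cell cycle genes kept and -0.046 at resolution 1.5. There Axin2 was 0.058 with a minimum of 2000 and 0.43 within the flow cell, and Sfrp1, called with a minimum of 1000, was 0.60 with a minimum of 2000. In GLAST/EGF against Troy-GFP NSC-like cells Ctnnb1 was -0.054 with cell cycle genes kept and -0.15 at resolution 1.5. In progenitor-like cells Sfrp1 was 0.43 and 0.62 with minimums of 500 and 2000 and 0.23 within the flow cell, Axin2 was 0.17 with 500 and 0.21 within the flow cell, and Fzd2 was -0.11 with cell cycle genes kept and -0.22 at resolution 1.5.

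Leaving out each library in turn gave 6 to 8 passing genes for Ki67-RFP against Troy-GFP, 5 to 7 for day-60 against day-2 tdTomato, 2 to 4 for Prom1/CD24 against Troy-GFP (5 with all libraries) and 0 to 3 for day-60 tdTomato against Troy-GFP NSC-like cells. Folds whose sign turned ranged from -0.19 to 0.22 (Fzd1, day-60 against day-2 tdTomato), -0.44 to 0.43 (Dkk3, day-2 tdTomato against Ki67-RFP), -0.34 to 0.018 (Axin2) and -0.011 to 0.27 (Sfrp1) for GLAST/EGF against Troy-GFP, -0.43 to 0.12 (Axin2) and -0.11 to 0.074 (Fzd3) for day-60 tdTomato against Troy-GFP NSC-like cells, and -0.28 to 0.053 (Axin2), -0.091 to 0.33 (Fzd2) and -0.35 to 0.23 (Sfrp1) in progenitor-like cells; none of these passed the threshold in any such fit.

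Without TMM the median over all genes moved by 0.277 for Prom1/CD24 against Troy-GFP, where the share of called genes that were higher went to 59.2% in place of 36.6%, by -0.113 for day-60 against day-2 tdTomato and by 0.125 for GLAST/EGF against Troy-GFP NSC-like cells; that share was 46.9% in place of 68% in day-60 tdTomato against Troy-GFP NSC-like cells and 44.6% in place of 58.2% in progenitor-like cells. Counts over all genes also moved, from 306 (thinned) to 4527 (no filter) beside 1420 for Prom1/CD24 against Troy-GFP and from 42 (thinned) to 506 (minimum of 500) beside 225 in day-60 tdTomato against Troy-GFP NSC-like cells. The planned edgeR alternative was not run, since the deposited values are not counts. Depth limits Fzd10 and Notum most, which rest on 75.3 and 314 transcripts in all.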

Other observations

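Lgr5, a receptor of R-spondins, was concentrated in the mature neuron-like clusters of the mixed day-60 sort, at 1042 ± 84.99 CPM (SD, 3 libraries, 16 cells) in the cluster led by Th and 237 ± 54.2 CPM (4 libraries, 58 cells) in the one led by Calb2, while its mean in the other clusters was at most 42.9 CPM, apart from 78.4 CPM in the cluster led by Ccl5, where it rested on 1 transcript in 5 cells of 1 library. Axin2 averaged 145 ± 46.9 CPM in 2 libraries (16 cells) of the unnamed cluster led by Vtn, which also carried the fibroblast genes Dcn, Lum and Col1a2, and Fzd5 averaged 141 ± 56.8 CPM in the Thbs4-led NSC-like cluster and at most 40.5 CPM in the other NSC-like clusters. These are levels per cluster, with no test.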
